A study of Homo sapiens with 4 samples.

Results

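Messenger RNA levels of 10 genes that make microRNAs or carry out their silencing were followed in 2 human pancreatic cancer cell lines. The genes were DROSHA, DGCR8, XPO5, DICER1, AGO1, AGO2, AGO3, TNRC6A, TNRC6B and TNRC6C, chosen by symbol, and all 10 were found among the 26255 gene symbols measured. All 10 also passed the filter used for testing, a mean of at least 1 FPKM, as did 12423 genes in all. FPKM is the number of sequenced fragments scaled by transcript length and library size, a level per length, so that genes can be set beside each other.

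The groups were MIA PaCa-2 cells with a miR-4800-3p mimic (labelled miR-4800-3p OE), MIA PaCa-2 cells with a negative control (scramble) oligonucleotide, PSN-1 cells with the same mimic and PSN-1 cells with the same control, 1 library each. Both lines come from pancreatic tumours, are labelled as epithelial, and received an oligonucleotide in every group, so no group of untransfected cells enters. The study's stated aim was to find messenger RNAs targeted by the microRNA. The sources used here give no dose or time of transfection, and each line is 1 cell population, so a difference between the lines describes these 2 lines.

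A microRNA gene is transcribed into a hairpin-bearing precursor, which the nuclease DROSHA and its RNA-binding partner DGCR8 trim in the nucleus. Exportin 5, encoded by XPO5, carries the trimmed hairpin to the cytoplasm, where DICER1 cuts it to a short duplex. One strand of the duplex is taken up by an Argonaute protein (AGO1 to AGO4), and the Argonaute recruits a TNRC6 protein (also called GW182), which brings in deadenylation and decapping enzymes that remove the target messenger RNA. A transfected mimic resembles the product of DICER1, and is loaded into Argonaute without passing through DROSHA, exportin 5 or DICER1.

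The sequences are shown so that the search for seed sites in these genes can be followed. The mature microRNA is given first, with its seed (bases 2 to 8) in capitals, and then its natural hairpin, with the mature arm in capitals, both from RefSeq on GRCh38.p14.
miR-4800-3p: cAUCCGUCcgucuguccac
MIR4800 hairpin: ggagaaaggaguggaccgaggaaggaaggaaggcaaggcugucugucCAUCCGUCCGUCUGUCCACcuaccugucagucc
The hairpin spans 80 bases on the minus strand of chromosome 4, from 2250077 to 2250156, and the mature arm of 19 bases lies from 2250091 to 2250109. A target site pairs with the seed and reads GACGGAT on the messenger RNA, or ACGGATA where the last seed base is unpaired and an A follows. With 1 3' UTR searched per gene, the longest in GENCODE release 29 (GRCh38, messenger strand), 2 of the 10 genes held such a site, AGO2 and DICER1. Over the genes tested, 279 of 11179 with an annotated 3' UTR held one (2.5%), a share not matched for 3' UTR length.
The site in DICER1 is of the second kind, from 95089621 to 95089627 on the minus strand of chromosome 14, starting at base 871 of a 3' UTR of 4270 bases. It is shown with its flanks, the 7 matching bases in capitals.
DICER1 3' UTR site: tatgtagtctACGGATAttttttatca
The site in AGO2 is of the first kind and starts past base 1000 of a 3' UTR of 11888 bases. TNRC6B, with a 3' UTR of 12567 bases, AGO3, with one of 16755 bases, and the other 6 genes held none. None of the 10 held either 7-base site in the longest coding sequence. A match is a description of the annotated sequence, and its use in these cells was not measured.

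Most of the 10 genes were expressed at middling levels, and AGO2 led them in all 4 libraries. AGO2, the Argonaute best known for cutting target RNA, measured 46.3 FPKM (mimic) and 44.0 FPKM (scramble) in MIA PaCa-2, and 67.7 and 58.3 in PSN-1. These levels lay above 84.7% to 91.1% of the genes tested. DGCR8 was the lowest in MIA PaCa-2 (3.14 and 3.62 FPKM), above 21.7% and 24.1% of the genes.

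**Figure D1:**
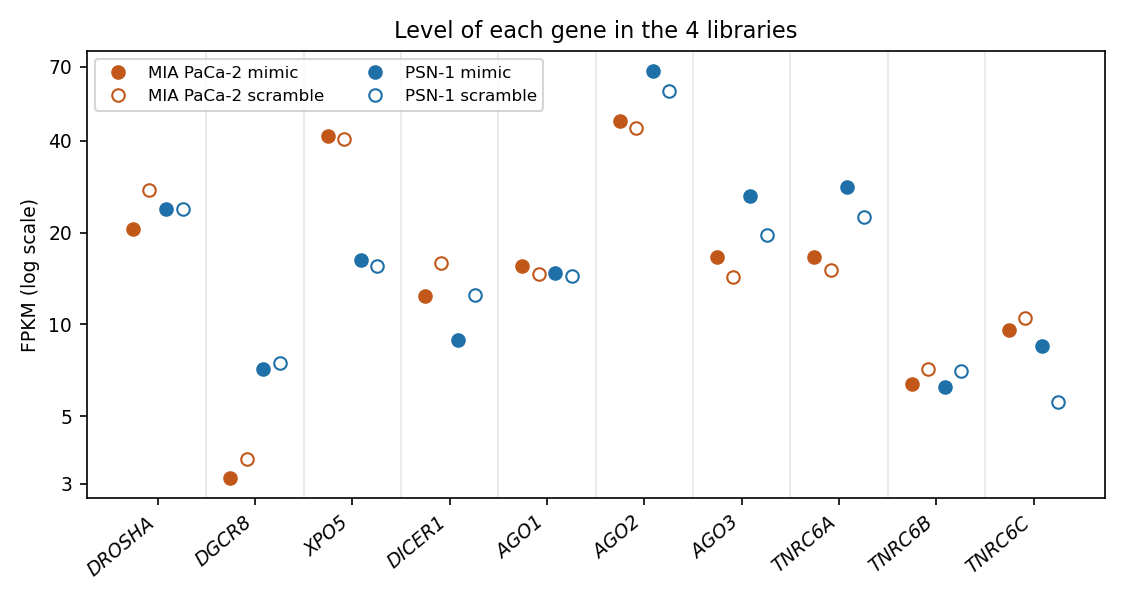
FPKM (log axis) of the 10 genes in each of the 4 libraries, ordered from hairpin trimming to silencing; orange points are MIA PaCa-2, blue points PSN-1, filled points the mimic and open points the scramble. XPO5 sits at 40.4 and 41.5 in MIA PaCa-2 and at 15.5 and 16.3 in PSN-1, the widest gap between the lines, while AGO1 stays between 14.4 and 15.5 in all 4 libraries.

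The order of levels differed between the lines. In MIA PaCa-2, AGO2 was followed by XPO5 (41.5 and 40.4 FPKM) and DROSHA (20.5 and 27.6). AGO3, TNRC6A, AGO1 and DICER1 came next, between 12.4 and 16.7 FPKM, with overlapping values. TNRC6C, TNRC6B and DGCR8 followed without overlap. In PSN-1, TNRC6A, AGO3 and DROSHA overlapped in second place, between 19.7 and 28.2 FPKM. XPO5 came next in both PSN-1 libraries, ahead of AGO1 and DICER1, and TNRC6C, DGCR8 and TNRC6B overlapped at the bottom, between 5.56 and 8.47 FPKM.

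Between the lines, 4 of the 10 genes were higher in PSN-1 and 1 was lower. DGCR8, TNRC6A, AGO3 and AGO2 were the higher ones and XPO5 the lower one. The comparison used limma, a linear model fitted to log2(FPKM + 1) of all genes, with line and oligonucleotide as terms and a two-sided Benjamini-Hochberg adjusted p under 0.05 as the call. Its spread comes from the disagreement between the mimic pair and the scramble pair of libraries, with 1 residual degree of freedom per gene. It covers cultures that differed by oligonucleotide. The fit draws the spread of each gene toward that of genes of similar level (4.07 prior degrees of freedom). The SE and p-value of a gene thus rest more on other genes than on its own pairs. Over all genes, 56.4% were called, 29.2% higher and 27.3% lower in PSN-1, so 5 called of 10 is near the background. The median absolute log2 difference was 0.48 for the 10 genes and 0.58 for all genes tested. The RNA came from whole cultures, so fewer cells with a message and less of it per cell cannot be told apart. The labels give no date or batch of library making, so its part in the line differences was not tested.

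XPO5, the export receptor of hairpin precursors, measured 41.5 FPKM (mimic) and 40.4 FPKM (scramble) in MIA PaCa-2. In PSN-1 it stood at 16.3 and 15.5 FPKM. The PSN-1 libraries were both far below the MIA PaCa-2 libraries, and the 2 libraries of a line were close to each other. The difference of PSN-1 minus MIA PaCa-2 was -1.31 on the log2 scale (SE 0.126, limma adjusted p = 0.00104), which is 2.48-fold on that scale. With the scramble libraries alone it was -1.33, and with the mimic libraries alone -1.29.

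DGCR8, the double-stranded RNA-binding subunit that positions DROSHA on the hairpin, went the other way. It stood at 3.14 and 3.62 FPKM in MIA PaCa-2 and at 7.14 and 7.45 in PSN-1, mimic first. The lines did not overlap, and the log2 difference was 0.92 (SE 0.161, limma adjusted p = 0.0068), or 1.89-fold on that scale. Its partner DROSHA, the catalytic subunit, stood at 20.5 and 27.6 FPKM in MIA PaCa-2 and at 23.9 in both PSN-1 libraries. The PSN-1 values lay between the MIA PaCa-2 values, and the log2 difference was 0.0066 (95% interval -0.39 to 0.41, limma adjusted p = 0.974). The ratio of DROSHA to DGCR8 was 6.54 and 7.62 in MIA PaCa-2 and 3.35 and 3.21 in PSN-1. This pair of subunits was thus present in different messenger RNA proportions in the 2 lines, a ratio for which no test was run.

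DICER1, the cytoplasmic nuclease, stood at 12.4 and 15.9 FPKM in MIA PaCa-2 and at 8.87 and 12.5 in PSN-1. The lines overlapped, since the MIA PaCa-2 mimic library lay just under the PSN-1 scramble library. The log2 difference was -0.38 (95% interval -0.75 to -0.016) and did not pass the call over all genes (limma adjusted p = 0.0719). The ratio of XPO5 to DICER1 was 3.35 and 2.55 in MIA PaCa-2 and 1.84 and 1.24 in PSN-1.

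**Figure D2:**
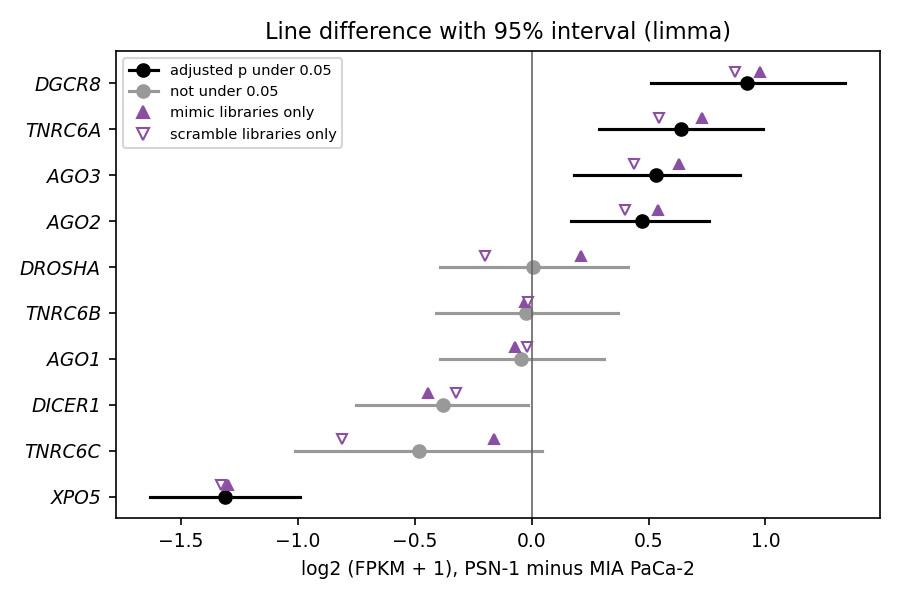
Difference of log2(FPKM + 1), PSN-1 minus MIA PaCa-2, for the 10 genes; circles and bars are the limma estimate and its 95% interval, black where the adjusted p was under 0.05, and triangles are the mimic or scramble libraries alone. XPO5 at -1.31 and DGCR8 at 0.92 lie farthest from 0, and the triangles of TNRC6C (-0.16 and -0.81) and DROSHA (0.21 and -0.20) lie farthest apart.

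Among the Argonaute genes, AGO2 and AGO3 were higher in PSN-1 and AGO1 was level. AGO2 differed by 0.47 on the log2 scale (SE 0.115, limma adjusted p = 0.0205). AGO3, which binds microRNAs like its relatives, stood at 16.7 and 14.3 FPKM in MIA PaCa-2 and at 26.4 and 19.7 in PSN-1. No PSN-1 library fell below a MIA PaCa-2 library, and the log2 difference of AGO3 was 0.53 (SE 0.139, limma adjusted p = 0.0248). Without the oligonucleotide term that call was lost (limma adjusted p = 0.0661). AGO1 stood at 15.5 and 14.6 FPKM in MIA PaCa-2 and at 14.7 and 14.4 in PSN-1, with a log2 difference of -0.044 (95% interval -0.39 to 0.31, limma adjusted p = 0.797). AGO4, the fourth Argonaute gene and not one of the 10, stood at 9.86 and 6.80 FPKM in MIA PaCa-2 and at 11.8 and 10.7 in PSN-1 (log2 difference 0.41, limma adjusted p = 0.0857).

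Summed over the 4 Argonaute genes, FPKM was 88.4 and 79.7 in MIA PaCa-2 and 121 and 103 in PSN-1, mimic first. AGO2 gave 52.4% to 56.5% of this sum in every library. AGO1 gave 17.6% and 18.3% in MIA PaCa-2, and 12.2% and 14.0% in PSN-1. These are shares of messenger RNA per length, and protein was not measured. The sources used here do not say how reads shared by related genes were counted. No window of 50 bases in the longest coding sequence of an Argonaute gene occurred in that of another, and the same held for the TNRC6 genes (0% of windows shared for each of the 7 genes).

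The TNRC6 genes, whose proteins bridge Argonaute to the deadenylases, differed in makeup between the lines. TNRC6A stood at 16.6 and 15.1 FPKM in MIA PaCa-2 and at 28.2 and 22.5 in PSN-1, with both PSN-1 libraries above both MIA PaCa-2 libraries. It was higher in PSN-1 by 0.64 on the log2 scale (SE 0.136, limma adjusted p = 0.0131), or 1.55-fold on that scale. TNRC6B stood at 6.38 and 7.15 FPKM in MIA PaCa-2 and at 6.24 and 7.06 in PSN-1, with a log2 difference of -0.022 (95% interval -0.41 to 0.37, limma adjusted p = 0.911). TNRC6C stood at 9.60 and 10.5 FPKM in MIA PaCa-2 and at 8.47 and 5.56 in PSN-1. Both PSN-1 libraries of TNRC6C lay below both MIA PaCa-2 libraries, but the log2 difference of -0.48 did not pass (limma adjusted p = 0.0996), and it was -0.81 with the scramble libraries alone against -0.16 with the mimic libraries alone.

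TNRC6A gave 51.0% and 46.1% of the summed TNRC6 FPKM in MIA PaCa-2 and 65.7% and 64.0% in PSN-1. TNRC6C gave 29.4% and 32.0% in MIA PaCa-2 and 19.7% and 15.8% in PSN-1. The sum itself was 32.6 and 32.7 FPKM in MIA PaCa-2 and 42.9 and 35.1 in PSN-1. The Argonaute sum was 2.44 to 2.94 times the TNRC6 sum over the 4 libraries. Counting non-overlap alone, 6 of the 10 genes had both PSN-1 libraries above or below both MIA PaCa-2 libraries, as did 79% of all genes tested.

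**Figure D3:**
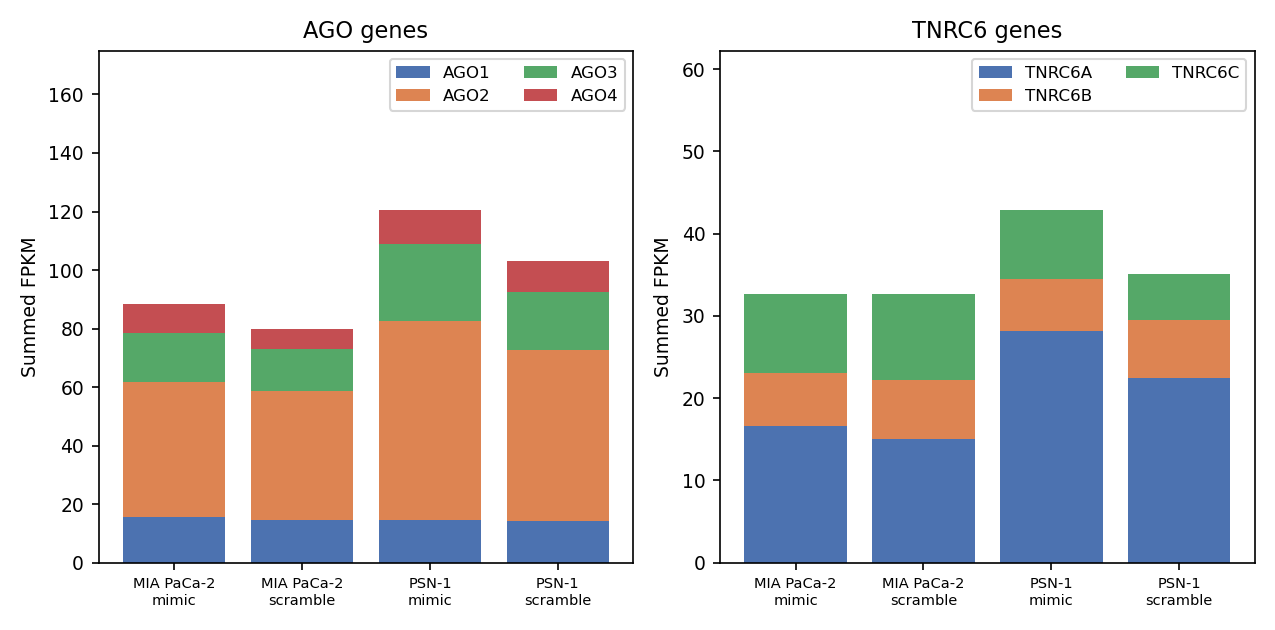
Summed FPKM of the Argonaute genes (left) and the TNRC6 genes (right) in each library, stacked by gene, with axes starting at 0. AGO2 makes up 52.4% to 56.5% of each left bar, and TNRC6A makes up 46.1% to 51.0% of the right bars in MIA PaCa-2 and 64.0% to 65.7% in PSN-1.

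With the mimic against the scramble, none of the 10 genes passed 1.5-fold on the log2(FPKM + 1) scale in either line, and none was called in the fit of both lines. DICER1 had the largest mean change of the 10, with the mimic library the lower one in both lines. The plain FPKM ratio of TNRC6C in PSN-1, mimic over scramble, was 1.52, and adding 1 to each FPKM brings it under 1.5-fold. Past 1.5-fold on the log2(FPKM + 1) scale were 7.04% of 12233 genes for PSN-1 and 9.49% of 11484 genes for MIA PaCa-2, so 0 of 10 is near the background. In limma with the line as a block, 0 of the 10 and 0.0563% of all genes had an adjusted p under 0.05. At an unadjusted p under 0.05 there was 1 of the 10, DICER1, against 8.44% of all genes. With 1 library per group, the values within a line have no replicate check. Counting errors below use fragments estimated from the coding length alone, which overstates them, and leave out any difference between cultures.

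DICER1 measured 12.4 FPKM (mimic) and 15.9 FPKM (scramble) in MIA PaCa-2, a log2 change of -0.33 (counting SE 0.0588). In PSN-1 it measured 8.87 and 12.5 FPKM, a log2 change of -0.45 (counting SE 0.0646). The mimic library was the lower one in both lines, by 21.9% for MIA PaCa-2 and by 28.9% for PSN-1. Both changes were downward past a log2 size of 0.32, as for 3.41% of the 10678 genes measured in both lines. In either direction, 28% of genes passed that size in MIA PaCa-2 and 24.3% did so in PSN-1. With a pseudocount of 5 the changes of DICER1 were -0.26 in MIA PaCa-2, short of that size, and -0.33 in PSN-1. The mean change over the lines was -0.39 (SE 0.142, limma adjusted p = 0.569), which did not pass the call. DICER1 is the gene whose site ACGGATA is printed above.

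AGO2, the other gene with a site, had a log2 change of 0.071 (counting SE 0.0526) in MIA PaCa-2, and of 0.21 (counting SE 0.044) in PSN-1. Its mimic library was thus the higher one in both lines, opposite to DICER1, with a mean change of 0.14 (95% interval -0.15 to 0.44, limma adjusted p = 0.783).

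AGO3, whose levels are given above, had a log2 change of 0.21 (counting SE 0.0864) in MIA PaCa-2, and of 0.41 (counting SE 0.0716) in PSN-1. For TNRC6A the changes were 0.13 (counting SE 0.0553) and 0.31 (counting SE 0.0441), MIA PaCa-2 first. For both genes the mimic libraries were above the scramble libraries of the same line by more than 2 counting SE in each line, and neither was called (limma adjusted p = 0.626 for AGO3 and 0.715 for TNRC6A). AGO1 and XPO5 stood 1.96% to 6.37% above the scramble in the lines, within 2 counting SE.

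DROSHA differed between the oligonucleotides in MIA PaCa-2, where it measured 20.5 FPKM (mimic) and 27.6 FPKM (scramble) (log2 change -0.41, counting SE 0.0553). In PSN-1 it was at 23.9 FPKM in both libraries. DGCR8 stood 13.3% lower with the mimic in MIA PaCa-2, and 4.15% lower in PSN-1, both within 2 counting SE, and rests on the fewest fragments of the 10 genes (about 95 and 98 in the MIA PaCa-2 libraries by coding length). TNRC6B stood 10.8% lower in MIA PaCa-2 and 11.5% lower in PSN-1, also within 2 counting SE. The mean changes of DROSHA (-0.21), DGCR8 (-0.11) and TNRC6B (-0.15) were not called (limma adjusted p = 0.771, 0.898 and 0.83).

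TNRC6C had mimic changes of opposite sign in the lines, the 1 gene of the 10 with the deposited FPKM, and kept these signs in each alternative run. The MIA PaCa-2 libraries held 9.60 FPKM (mimic) and 10.5 FPKM (scramble), a log2 change of -0.11 (counting SE 0.0674). The PSN-1 libraries held 8.47 and 5.56 FPKM, a log2 change of 0.53 (counting SE 0.0773). On the log2(FPKM + 1) scale its change was the one closest to 1.5-fold among the 10 genes, and with a pseudocount of 0.1 it passed (log2 change 0.60). Over all genes measured in both lines, 44.2% had changes of opposite sign. Of the 10 genes, 4 were below the scramble in both lines (27.6% of all genes) and 5 were above it in both (28.1%). The 4 include DROSHA, with a log2 change in PSN-1 of -9.3e-05 (23.9 FPKM in both libraries). Signs near 0 turned with the processing. DROSHA in PSN-1 stood at 0.00098 after rescaling by median ratios, XPO5 in MIA PaCa-2 at -0.0058 after rescaling to the same sum, and DGCR8 in PSN-1 at 0.037 after removal of the trend of changes on the GC share of the 3' UTR, an alternative chosen after seeing the data.

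**Figure D4:**
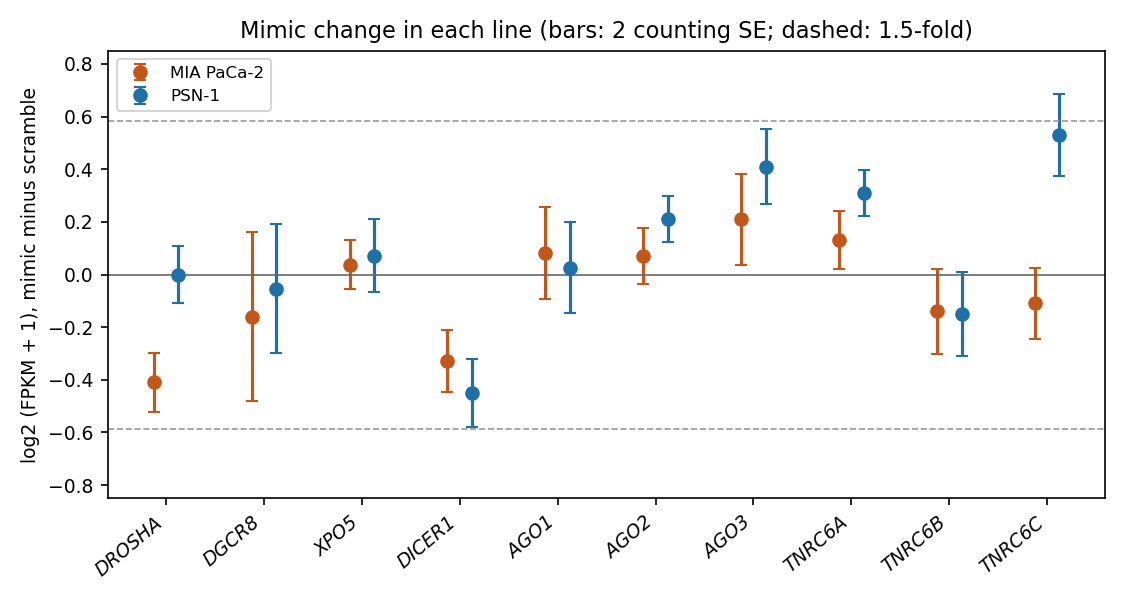
Change of log2(FPKM + 1), mimic minus scramble, of the 10 genes in MIA PaCa-2 (orange) and PSN-1 (blue); bars are 2 counting SE and leave out differences between cultures, and dashed lines mark 1.5-fold. DICER1 lies below 0 in both lines (-0.33 and -0.45), TNRC6C lies at -0.11 and 0.53, and no point crosses a dashed line.

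The rest of the pathway was read from 3 lists. Of 22 loading and accessory factors, 21 were tested, and between the lines 6 were higher and 7 lower in PSN-1, 61.9% called against 56.4% of all genes. TARBP2, the RNA-binding partner of DICER1, was higher in PSN-1 by 1.21 on the log2 scale (12.4 to 13.1 FPKM in MIA PaCa-2 and 30.3 to 31.0 in PSN-1). LIMD1 (1.20), P4HA1 (0.82), a prolyl hydroxylase subunit, and the import receptor gene IPO8 (0.51) were also higher. WTIP was lower by 2.27 (20.7 to 24.4 FPKM in MIA PaCa-2 and 3.85 to 3.87 in PSN-1), followed by the chaperone genes HSP90AA1 (-1.48), HSP90AB1 (-1.37) and FKBP5 (-1.20). HSP90 and its partners hold Argonaute open for loading.

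With the mimic, IPO8 passed 1.5-fold downwards in both lines, from 21.3 FPKM (scramble) to 10.3 FPKM (mimic) in MIA PaCa-2 (log2 change -0.98), and from 27.5 to 16.8 in PSN-1 (-0.68), and was not called (limma adjusted p = 0.323). FXR2, an RNA-binding relative of the fragile X protein, was past 1.5-fold upwards in MIA PaCa-2 (0.66) and stood at 0.58 in PSN-1. HSP90AA1 measured 1640 FPKM (mimic) and 1960 FPKM (scramble) in MIA PaCa-2 (-0.26), and 862 and 475 FPKM in PSN-1 (0.86). The list's median change was -0.10 for MIA PaCa-2 and 0.12 for PSN-1, beside 0.014 and -0.016 for all genes.

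Of 20 processing cofactors and microRNA decay factors, 18 were tested, and 5 were higher and 3 lower in PSN-1. That is 44.4% called, beside 56.4% of all genes. ZC3H12A, a ribonuclease that cuts precursor hairpins and inflammatory messenger RNAs, was higher by 2.92 (6.23 and 7.41 FPKM in MIA PaCa-2, 69.0 and 49.1 for PSN-1). The others named were the uridylyl transferase gene ZCCHC6 (0.87), PNPT1 (0.76) and the exonuclease gene XRN2 (0.74). KHSRP, which promotes the processing of some precursors, was lower by 1.24 (123 and 79.7 FPKM in MIA PaCa-2, 46.9 and 36.6 for PSN-1, scramble first). ZCCHC11, the other uridylyl transferase gene, was lower by 0.67 and ERI1 by 0.65, so ZCCHC6 and ZCCHC11 differed in opposite directions. With the mimic, DDX17, a helicase of the DROSHA complex, had a log2 change of 0.73 for MIA PaCa-2 and -0.41 for PSN-1. TSN, a subunit of the nuclease that clears cut passenger strands, measured 14.2 FPKM (mimic) and 22.4 FPKM (scramble) in MIA PaCa-2 (-0.63), and 13.4 and 19.0 FPKM in PSN-1 (-0.48), and is the 1 gene of this list with a 7-base site in its longest 3' UTR. KHSRP, which held no such site, had log2 changes of -0.62 and -0.35. None of the 18 was called for the mimic in limma.

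Of 30 deadenylation, decapping and P-body factors, all were tested, and 7 were higher and 9 lower in PSN-1. That is 53.3% called, near the 56.4% of all genes. The decapping genes DCP1A and DCP1B differed in opposite directions, DCP1A by 0.86 and DCP1B by -1.46 (28.9 and 29.1 FPKM in MIA PaCa-2, 10.5 and 9.36 for PSN-1). TOB2 (-1.65), TOB1 (-0.81), antiproliferative proteins that bind the CCR4-NOT deadenylase, and the decapping scaffold gene EDC4 (-0.81) were also lower. The exonuclease gene XRN1 (0.55), the cap-binding protein gene EIF4E2 (0.55) and CNOT10 (0.52) were higher. With the mimic, EDC3 was the 1 gene of this list past 1.5-fold, in PSN-1 (12.1 FPKM mimic, 19.9 FPKM scramble, log2 change -0.67), and stood at -0.47 in MIA PaCa-2. Over all genes, 7.04% passed 1.5-fold in PSN-1 and 9.49% in MIA PaCa-2. EDC3 held no 7-base site in its longest 3' UTR, and neither did IPO8 of the first list. EIF4E2 held one, and its mimic changes were -0.12 for MIA PaCa-2 and -0.13 for PSN-1. None of the 30 was called for the mimic in limma. The list's median change was -0.07 for MIA PaCa-2 and 0.044 for PSN-1, beside 0.014 and -0.016 for all genes.

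The genes whose pattern over the 4 libraries was closest to that of XPO5, by Euclidean distance of log2(FPKM + 1) centred on each gene's mean, were BRWD1 (distance 0.039), LINC00174 (0.0435) and RAB23 (0.0493). BRWD1 stood at 19.3 and 18.8 FPKM in MIA PaCa-2 and at 7.45 and 6.74 in PSN-1. LINC00174 stood at 2.53 and 2.57 FPKM in MIA PaCa-2 and at 0.49 and 0.412 for PSN-1, so the 1 added to each FPKM weighs more on its pattern than on that of XPO5. RAB23 stood at 11.3 and 10.8 FPKM, and at 3.83 and 3.79 for PSN-1. The distance describes these 4 libraries.

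Depth was similar in the 4 libraries, with 1 FPKM standing for an estimated 12.6 to 15.9 fragments per kilobase, and 15699 to 17294 genes above 0. The 2 lines differed in markers of the labelled cell type. EPCAM was at 0.104 to 0.139 FPKM in MIA PaCa-2 and at 24.1 to 28.4 in PSN-1. KRT7 was listed at 0 in MIA PaCa-2 and was at 287 to 406 FPKM in PSN-1. ELF3 was at 0.107 to 0.144 and 24.5 to 61.6 FPKM in the same order. KRT19 went the other way, at 131 to 178 and 78.2 to 92.3 FPKM. CLDN4 overlapped between the lines, and CDH1 was at 0.17 to 1.51 FPKM over the 4 libraries. KRT8 and KRT18 were high in each line and, like KRT19, lower in PSN-1 without overlap. KRT8 was at 737 to 923 FPKM in MIA PaCa-2 and at 537 to 665 in PSN-1, and KRT18 at 653 to 718 and 495 to 556. Of the mesenchymal markers, VIM was at 4110 to 4400 FPKM in MIA PaCa-2 and at 1140 to 1240 in PSN-1. ZEB1 was also lower in PSN-1, at 24.1 to 30.5 FPKM in MIA PaCa-2 and 19.8 to 22.7 in PSN-1. FN1 differed in the opposite direction, at 0.0457 to 0.0696 and 308 to 353 FPKM. CDH2 was at most 0.0514 FPKM in any library. Of 5 leukocyte markers, 0 reached 1 FPKM in MIA PaCa-2 and 2 did in PSN-1 (summed level 1.12 to 1.27 and 5.51 to 8.39 FPKM), with CD3E and MS4A1 at 0 throughout. Of 4 endothelial markers, 0 and 2 did (at most 0.0273, and 7.16 to 7.99 FPKM), and of 6 fibroblast and stellate cell markers 2 and 4 did (67.0 to 84.7 and 80.4 to 99.0 FPKM). The last sums hide opposite directions. COL1A2 was at 59.9 to 76.8 FPKM in MIA PaCa-2 and at most 0.012 in PSN-1, while COL1A1, COL3A1, DCN, LUM and PDGFRB were higher in PSN-1. The part of all these markers in the line differences was not tested.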

How the data were processed

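Per the labels' protocols, a TruSeq stranded mRNA kit was used on RNA from a miRNeasy Micro kit, so mature microRNAs are not measured. The authors deposited FPKM per gene symbol for 4 libraries, 1 per group, per the file headers. TopHat2 2.1.1, Cuffdiff 2.2.1 and hg19 appear in the submitters' processing notes, without roles. The sources used here give no annotation, strand setting or scaling between libraries.

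Genes averaging at least 1 FPKM over the 4 libraries were fitted on log2(FPKM + 1) by limma 3.58.1 (eBayes with trend, R 4.3.3). Cell line and oligonucleotide were the terms. A run on simulated data, with less noise than these libraries, checked only that the size of added line differences was returned. It did not check the calls or the mimic term. The pairing of libraries is by cell line and oligonucleotide, as labelled; no replicate numbers are given. Nothing in the labels gives separate cultures as replicates, so p-values measure the spread between these libraries.

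Depth came from whole-fragment steps, read from the ratio of a gene's FPKM in the MIA PaCa-2 mimic library to that in another library. Among genes under 0.1 FPKM in both, 82.7% to 84.4% of rescaled ratios matched a fraction of whole numbers no higher than 6 to within 0.5%. The absolute scale came from genes with 1 annotated transcript of at least 1000 bases, assuming fragments of 200 bases. Sites were searched in GENCODE 29 (GRCh38, another build than the files' hg19), joined on symbol. Tables and figures were made with Python 3.11.15 (pandas 2.3.3, numpy 2.4.6, matplotlib 3.10.9).

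The 10 genes, the 3 lists and the tests were chosen with earlier results of these data known. Named from each list were at most 4 genes called higher and 4 called lower between the lines, by size, at most 2 per line and direction past 1.5-fold with the mimic, any called with the mimic, and the 3 genes closest in pattern to the gene with the largest line difference. Alternatives were pseudocounts of 0.1 and 5, no filter and a filter of 5 FPKM, rescaling by sums and by median ratios, no trend, terms left out, single pairs of libraries, a lower fold (0.32 on the log2 scale) and 2-fold, and, chosen after seeing the data, removal of the lowess trend of changes on the GC share of the 3' UTR.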

Additional observations from a re-analysis of the deposited data

Results flagged for a closer look

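Of the 10 genes and the genes named from the lists for a mimic change, 3 had mimic changes of opposite sign in the 2 lines, each from 1 pair of libraries per line, and the difference between the lines was not tested. Opposite signs are common, at 44.2% of the 10678 genes measured in both lines. For TNRC6C the log2 change in PSN-1 minus that in MIA PaCa-2 was 0.64 (counting SE 0.103). For HSP90AA1, a chaperone gene, it was 1.12. For DDX17, a helicase gene, it was -1.14.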

How the results depend on the processing

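Of the 10 genes, 5 were called between the lines in each alternative fit except that without the oligonucleotide term, where 4 were and AGO3 was not; the calls over all genes stayed within 1.5 times in each. The 5 called genes had the same sign with the scramble libraries alone and with the mimic libraries alone, while DROSHA, which was not called, stood at -0.20 and 0.21. For the mimic, none of the 10 was called in any alternative fit. Over all genes limma called 7 for the mimic, 4 with a pseudocount of 5, 0 without the filter on low values (1116 at an unadjusted p under 0.05) and 0 without the cell line as a block (44 at an unadjusted p under 0.05). With the lower fold, 0.32 on the log2 scale, 2 of the 10 genes passed for MIA PaCa-2 with the mimic (DICER1 and DROSHA; 28% of all genes), and 3 passed for PSN-1 (DICER1, AGO3 and TNRC6C; 24.3%). With a pseudocount of 0.1, 1 of the 10, TNRC6C, passed 1.5-fold in PSN-1. After removal of the GC trend, an alternative chosen after seeing the data, DICER1 stood at -0.36 for MIA PaCa-2 and -0.49 for PSN-1. With a pseudocount of 5 the DICER1 changes were smaller, -0.26 for MIA PaCa-2 (under the lower fold) and -0.33 for PSN-1. The mimic changes of DROSHA in PSN-1 (0.00098, median ratios), XPO5 in MIA PaCa-2 (-0.0058, same sum) and DGCR8 in PSN-1 (0.037, GC trend removed) each turned sign under 1 alternative, from -9.3e-05, 0.038 and -0.054. The cause of these shifts was not tested. A difference between cultures cannot be seen with 1 library per group.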

Other observations

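The let-7 antagonists LIN28A and LIN28B were close to 0 in all 4 libraries (at most 0.0493 and 0.0354 FPKM), and TRIM71, a let-7 target and RNA-binding ubiquitin ligase gene, stood at 0.191 and 0.482 FPKM in MIA PaCa-2 and at 0.0853 and 0.0807 in PSN-1, mimic first.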
